A study of Drosophila melanogaster with 4 samples.

Results

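The 398 regions described here are the Stat92E-GFP ChIP-seq peaks in the distal, mostly euchromatic parts of 3 autosomal arms of Drosophila melanogaster. Peaks of 2L with a midpoint below 21 Mb, of 3L below 22.5 Mb and of 3R above 2 Mb were taken, in release 5 coordinates of the fly genome. They made up 398 of the 2380 peaks of the list (16.7%). Membership was set by position alone, so widths, scores and spacing were not used to choose them. The arm 2R was not part of the rule, and its peaks are not described here.

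In the fly JAK/STAT pathway, Stat92E is the only STAT-type transcription factor. Secreted ligands of the Unpaired family bind the receptor Domeless, the kinase Hopscotch is activated, and phosphorylated Stat92E dimers enter the nucleus and bind short palindromic DNA elements near target genes. In embryos the pathway is known for its part in segmentation, in the shaping of the gut and tracheae and in blood cell formation, and it raises the expression of its own inhibitors. Genes regulated by the pathway can carry several such elements close together, which is the background to describing single sites and clusters apart.

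The study has 2 ChIP libraries and 2 input libraries. ChIP used the polyclonal rabbit antiserum ab290, raised against GFP, and the input is chromatin that was not precipitated. All 4 carry the same labels: genotype PBac{y[+]-attP-3B}VK00037, strain Stat92E-GFP with a transgene of the genomic coding region of Stat92E, and embryos of 12 to 24 h. Chromatin came from embryos cross-linked in 1.8% formaldehyde for 15 min, so cell types are mixed, and the flies named in that protocol are not the tagged strain. The labels do not say whether untagged Stat92E was also present or whether replicates came from separate collections.

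A single peak list was deposited for the 4 libraries. It gives a start, an end and a score for each peak, with no value per library. A spread between replicates, a depth and a ratio of ChIP to input can therefore not be given for any region, and no test between conditions was possible. The score is the value of the authors' peak caller on a scale that is not stated, and it was used only to compare peaks within this list. Peaks of 1 list are not replicates. Intervals below are 95% intervals that cover counting error only and treat peaks as independent, and no p-value was computed. No gene is named for any region, because the annotation used here belongs to release 6, whose coordinates differ, and no sequence is shown for the same reason.

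Distal autosomal peaks were narrow and mostly of low score within the list. Their median score was 14.45 (interval 13.3 to 15.6), with quartiles of 11.1 and 22.7 and a range from 6.92 to 153.34. The median over all 2380 peaks was 43.0, and 30 of the 398 peaks lay above it (7.54%, exact interval 5.14 to 10.6%). Most peaks of X and of the pericentromeric part of the same arms, both described below, were also under this median. It was exceeded by 24 of 164 X peaks (14.6%) and 39 of 115 pericentromeric peaks (33.9%). A low score within the list was thus not particular to the distal arms. The other peaks of the list, among them those on unplaced Uextra scaffolds, are not broken down here. The medians of the whole list are therefore no benchmark for peaks of the main arms. The highest distal autosomal peak was outscored by 327 of the 1982 peaks elsewhere in the list. None of these was on X, where the highest score was 94.39. None was past the boundary on 2L, 3L or 3R, where it was 134.19. With 2LHet, 3LHet and 3RHet included, the highest pericentromeric score was 322.43. The median width of the distal autosomal peaks was 344 bp (interval 319 to 366 bp), with quartiles of 256.5 and 500.5 bp, against 424 bp over the whole list. Together the peaks covered 174 kb, or 0.258% of the 67.4 Mb between the first and the last peak of each arm.

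The 3 arms were alike in these measures. The median score was 14.45 on 2L (119 peaks, interval 12.85 to 16.6), 13.99 on 3L (129 peaks, 12.8 to 16.3) and 14.9 on 3R (150 peaks, 13.1 to 16.5). The median width was 335 bp on 2L, 325 bp on 3L and 355 bp on 3R. Density was 6.02 peaks per Mb of span on 2L (Poisson interval 4.99 to 7.20), 5.76 on 3L (4.81 to 6.84) and 5.94 on 3R (5.03 to 6.97). All of these intervals overlap between the arms.

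The strongest locus was a lone peak on 3L, at 3L:16045214-16046406, with a score of 153.34 and a width of 1193 bp. Its nearest neighbour on the list lay 225.8 kb away. The second was a lone peak on 2L, at 2L:7976403-7977174, with a score of 140.94 and a width of 772 bp, 35.4 kb from the next peak. After these 2 the scores dropped to 106.9, the score of 3L:20814587-20816205, which was 1619 bp wide and had a second peak 680 bp downstream.

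The fourth and the eighth peaks by score lay close to each other on 3L. The first of them, 3L:7978627-7979885, had a score of 104.55 and a width of 1259 bp, and was followed after 199 bp by a peak of 653 bp with a score of 41.81. The other, 3L:8013031-8015789, had a score of 93.68 and was the widest distal autosomal peak with 2759 bp. A peak of 999 bp with a score of 71.7, the eleventh of the ranking, lay 338 bp behind it. These 4 peaks fell within a stretch of 38.5 kb, which thus held 3 of the 11 highest peaks, a concentration singled out after the values were seen.

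On 3R the strongest loci were lone peaks. The highest, 3R:18276589-18278788, had a score of 102.89 and a width of 2200 bp and lay 53.2 kb from its neighbour. It was followed by 3R:8889543-8890393 with a score of 101.73 and 851 bp, and by 3R:8537926-8538694 with a score of 96.63 and 769 bp. The nearest peak to 3R:8537926-8538694 lay 269.8 kb away. A second wide peak of 3R, at 3R:17434950-17437202, had a score of 87.68 and a width of 2253 bp.

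Of the 20 peaks of highest score, 6 lay on 2L, 6 on 3L and 8 on 3R, with scores from 52.29 to 153.34. The lower part of this ranking held 2L:15061038-15061808 (score 77.53), 3R:24905426-24906196 (63.31), 3L:7242298-7243032 (62.02) and 3R:25575159-25575560 (57.74). They were lone peaks, and the last was only 402 bp wide. The remaining 6 had scores from 52.29 to 57.09. They were 3R:11925062-11926018 and 3R:21091289-21091779 and, on 2L, 2L:7426301-7426981, 2L:6323836-6324593, 2L:15913251-15914158 and 2L:7219910-7220301. The 20 peaks made up 20.1% of the summed score of all 398, and the 100 highest made up 52.1%. Scores thus fell off steeply: 22 peaks had a score of 50 or more (5.53%) and 116 had 20 or more (29.1%).

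At a linking distance of 10 kb, most distal autosomal peaks stood alone. Peaks of an arm were linked into a group when the gap between them was at most 10 kb, which gave 152 clustered peaks (38.2%, exact interval 33.4 to 43.2%) and left 246 single ones. With 50 kb in place of 10 kb the clustered share was 59.8%, so the majority turned with the distance chosen. The 152 formed 60 groups, so the 398 peaks amounted to 306 separate sites, or 4.54 sites per Mb of span. The clustered share was 45.4% on 2L (54 of 119, interval 36.2 to 54.8%), 43.4% on 3L (56 of 129, 34.7 to 52.4%) and 28% on 3R (42 of 150, 21.0 to 35.9%). The interval of 3R lay just below that of 2L and overlapped that of 3L. Peaks of a group share their clustered status by construction, so they are not independent in this measure. Every interval of a clustered share given here is therefore too narrow, and no difference between the arms is drawn from them.

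Spacing ranged widely, with peaks in every class of distance. The gap to the nearest other peak was at most 1 kb for 98 peaks (24.6%) and between 1 and 10 kb for 54 (13.6%). It was 10 to 50 kb for 86 peaks, 50 to 100 kb for 63 and over 100 kb for 97 (24.4%). The shortest gap was 51 bp and the longest distance to a neighbour 1151 kb, with a median of 32.2 kb. The share with a neighbour within 1 kb was 32.8% on 2L, 25.6% on 3L and 17.3% on 3R.

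**Figure D1:**
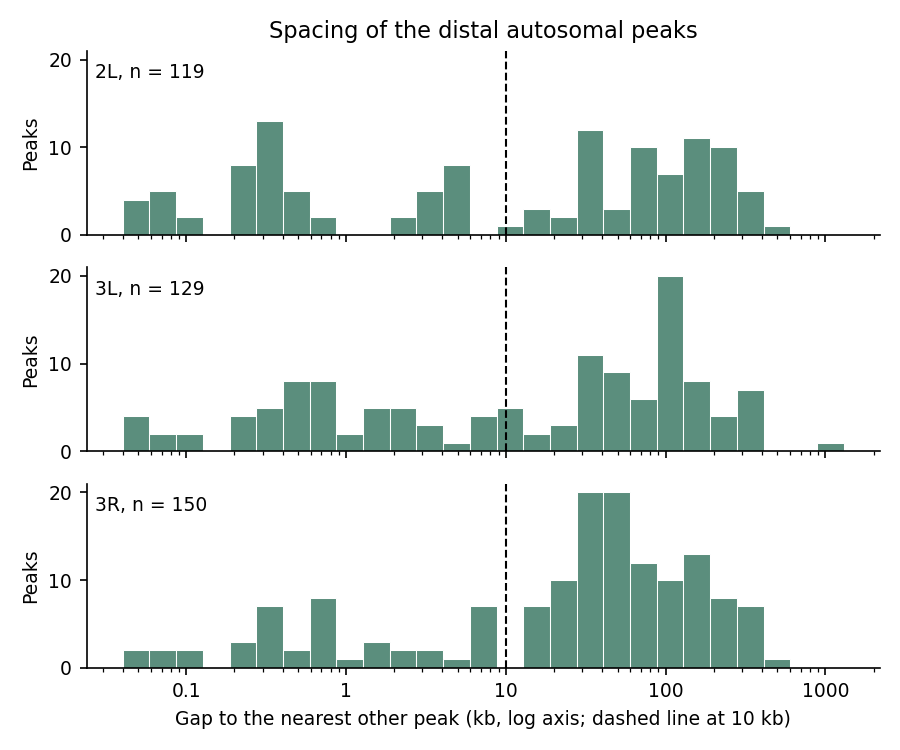
Histograms of the gap from each distal autosomal peak to the nearest other peak of its arm, in kb on a log axis, with the number of peaks on the vertical axis and 1 panel per arm. The dashed line marks the 10 kb used to link peaks: 152 of the 398 gaps lie to its left, 98 of them at up to 1 kb, and 246 to its right, 97 of them over 100 kb.

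Groups were small. Of the 60 groups, 42 were pairs, 11 were triplets, 3 had 4 peaks, 2 had 5, 1 had 6 and 1 had 7. Groups ran over 0.539 to 18.6 kb from first to last base, with a median of 3.12 kb. None of them reached past the boundary of the distal parts. In 19 of the 60 groups the highest peak had at least 2 times the score of the lowest, and the median ratio was 1.62.

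Clustered and single peaks had close medians of score and width. The median score was 14.8 for clustered peaks (interval 12.8 to 17.1) and 14.4 for single peaks (13.2 to 15.5), a difference of 0.380 score units. The sign of this difference was not stable: it was -0.910 without the 4 groups of 5 or more peaks and -1.37 in means. The median width was 333.5 bp for clustered peaks (313 to 395 bp) and 348.5 bp for single peaks (319 to 378 bp), a difference of -15 bp, which was 42.8 bp in means. The intervals overlap for both measures.

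Clusters were found at every level of score. With the ranking cut into 4 parts of 99 or 100 peaks, the clustered share was 39.4%, 39%, 34.3% and 40%, from the highest scores to the lowest. The 20 highest held 6 clustered peaks (30%, exact interval 11.9 to 54.3%) and 14 single ones, and the interval includes the overall share of 38.2%. Across the 398 peaks, which share libraries, depth and peak caller, the Spearman correlation of score with the gap to the nearest peak was 0.032.

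A site could also be read by its highest peak. Over the 60 groups the highest peak had a median score of 17.6 (interval 16.8 to 24.6), against 14.4 (13.2 to 15.5) over the 246 single sites. In 26 groups (43.3%) and in 69 single sites (28.05%) it reached 20. The highest of several peaks exceeds a typical one of them by construction, so these values describe sites and do not compare peaks.

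The 6 clustered peaks among the 20 highest belonged to 5 pairs, 1 of which held 2 of the 6. The second peak of the pair with 3L:20814587-20816205 had a score of 47.27 and a width of 905 bp. On 3R, the peak at 3R:11925062-11926018 had a score of 57.09, 5.04 times the 11.33 of its partner of 202 bp, the largest ratio within any group. On 2L, the peak at 2L:15913251-15914158 had 52.8 and its partner 14.86. The pair at 3L:8013031-8017126 was the most even of the 5, with 93.68 and 71.7.

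The group with most peaks lay at the far end of 3R, at 3R:27899081-27904648, and held the last peak of the arm on the list. Its 7 peaks covered 70.2% of 5.57 kb, with scores of 29.75, 29.52, 26.49, 32.71, 29.52, 21.99 and 29.72. The first 5 were 628 to 696 bp wide, and the last 2 were 212 and 364 bp wide. From one peak to the next, starts lay 966, 1032, 934, 968, 1038 and 266 bp apart. Gaps were 276 to 366 bp between the first 6 peaks and 54 bp before the last. The scores of all 7 lay within a factor of 1.49.

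The second was a group of 6 on 2L, at 2L:18144286-18152320, over 8.03 kb. A first peak with a score of 24.38 was followed after 2747 bp by 5 peaks with scores of 33.67, 28.95, 18.07, 32.54 and 27.29 and gaps of 51 to 361 bp. Its last peak, 1222 bp wide, was among the 10 widest. The nearest peak outside the group lay 175 kb away.

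A group of 5 lay at 3R:2644990-2648565, the peaks nearest to the centromere among the distal peaks of 3R. Its scores were 29.54, 22.84, 19.03, 22.85 and 34.28, lowest in the middle, and its gaps ran from 217 to 319 bp. It stood 682 kb from any other peak. The other group of 5, at 3R:23688879-23693740, had lower scores of 12.68, 9.02, 7.36, 9.9 and 15.01, and its peaks covered 30.3% of its 4.86 kb.

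**Figure D2:**
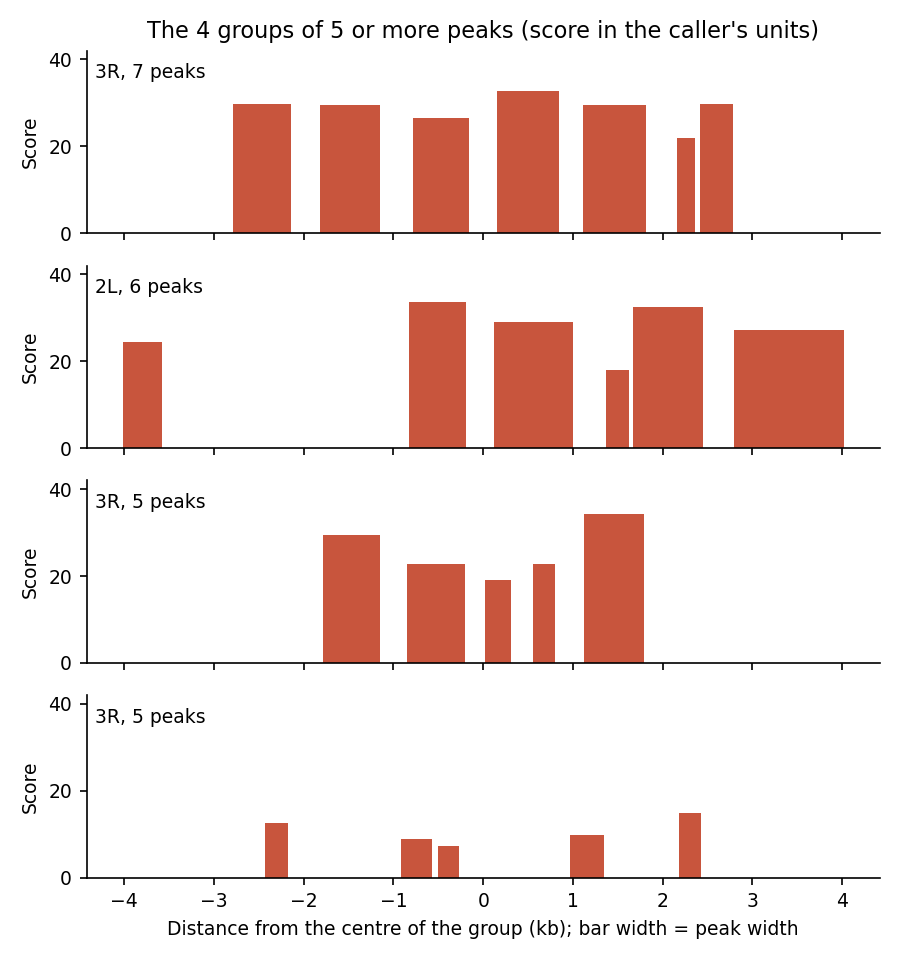
The 4 groups of 5 or more distal autosomal peaks, 1 panel each. The horizontal axis is the distance from the centre of the group in kb, each bar is 1 peak drawn at its true width, and its height is the peak score from 0 in the caller's units. The 7 peaks of the top panel have scores from 21.99 to 32.71, the last 2 of them 54 bp apart, and the 5 of the bottom panel have scores of 15.01 or less.

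Most of the named groups of 3 or 4 peaks had scores below 20. The 3 groups of 4 peaks were 2L:9976323-9979452, with scores from 8.27 to 11.98, 2L:16517950-16526594, with scores from 8.09 to 36.57, and 3R:21924947-21943542, with scores from 10.14 to 13.5. The last was the longest group of all with 18.6 kb, and its peaks covered 6.04% of it. Among the triplets with most covered sequence, 3L:616480-628336 held scores from 20.96 to 33.79, and 3L:21018373-21020257 and 3R:3920414-3923721 stayed below 20. Triplets had a median score of 12.3 (33 peaks, interval 10.8 to 13.99) and pairs one of 15.7 (84 peaks, interval 12.6 to 17.6).

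Close neighbours tended to have like scores, though much of this rested on the large groups. Over the 56 pairs of neighbouring peaks up to 1 kb apart, the Spearman correlation of the 2 scores was 0.536, and over the 36 pairs 1 to 10 kb apart it was 0.071. Over the 303 neighbouring pairs more than 10 kb apart it was -0.045. Without the 4 groups of 5 or more peaks, the correlation for pairs up to 1 kb apart was 0.310 over 40 pairs. With all groups included, the median ratio of the higher to the lower score was 1.41 for pairs up to 1 kb apart. It was 1.32 for those 1 to 10 kb apart and 1.58 for those more than 10 kb apart. By this ratio, pairs 1 to 10 kb apart were no less alike than closer ones. Neighbouring pairs can share a peak, and the reads of peaks this close together can come from overlapping fragments.

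Wider peaks had higher scores, with exceptions at both ends. Score and width had a Spearman correlation of 0.657 over the 398 peaks, 0.727 over the 152 clustered peaks and 0.606 over the 246 single ones. The median score was 11.1 for the 91 peaks of up to 250 bp, 12.7 for the 113 of over 250 and up to 350 bp and 16.4 for the 94 of over 350 and up to 500 bp. It was 28.9 for the 88 of over 500 and up to 1000 bp and 62.6 for the 12 wider peaks. The narrowest width, 201 bp, was shared by 13 peaks with scores from 7.96 to 13.37.

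Of the 10 widest peaks, 7 lay on 3L and 6 were also among the 10 of highest score. The other 4 scored lower. They were 3L:626154-627721 (1568 bp, score 33.79), 3L:7427547-7428807 (1261 bp, score 13.17), 2L:18151099-18152320 (1222 bp, score 27.29) and 3L:11112647-11113831 (1185 bp, score 37.57). The second of these was a lone peak whose score was below the median of all 398. In the other direction, 3 of the 30 highest peaks were at most 420 bp wide, all of them single, with scores from 45.4 to 57.74. A narrow band of widths also held several strong peaks: the 8 peaks from 760 to 780 bp wide, 5 of them single, had scores from 24.64 to 140.94, with 4 among the 20 highest. The last 2 sets were singled out after the values were seen.

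**Figure D3:**
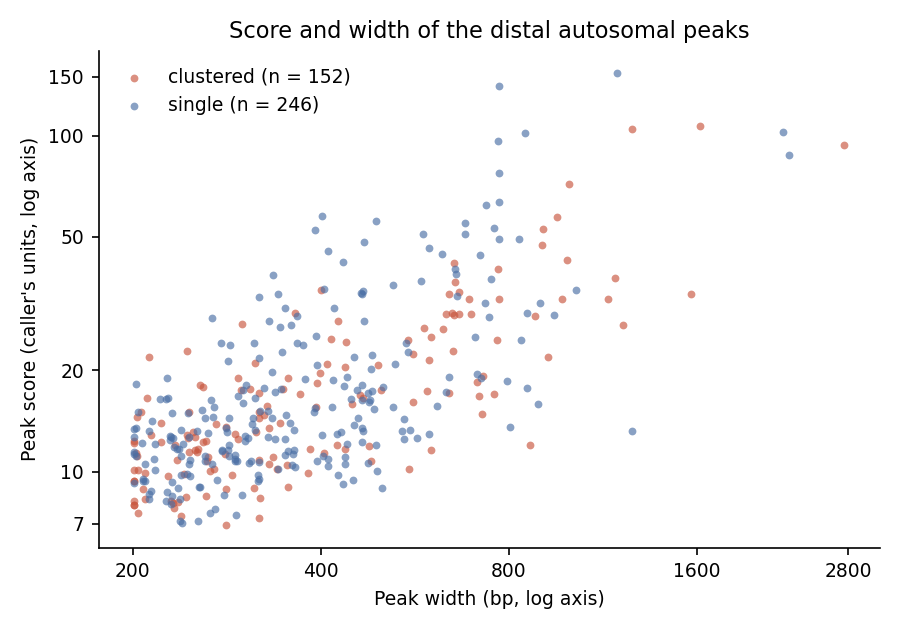
Score in the caller's units against width in bp for the 398 distal autosomal peaks, both on log axes, with 1 point per peak and the 152 clustered and 246 single peaks in different colours. Both kinds lie in the same band rising to the right, and the highest 2 points are single peaks of 1193 and 772 bp.

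Counted in steps of 1 Mb from the peak nearest to the tip of the arm, every one of the 66 full steps held a peak. The median was 6 and the range from 1 to 13. The lack of an empty step depends on where the steps start, since stretches of 1604 kb on 3R and 1445 kb on 3L held no peak. On 2L the counts stayed between 2 and 10, on 3L between 1 and 13 and on 3R between 2 and 12. The ratio of variance to mean of these counts was 0.481 on 2L, 2.19 on 3L and 1.34 on 3R. In windows of 100 kb, 250 of 677 held a peak (36.9%), 159 of them exactly 1, and 9 held 5 or more.

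The densest windows of 100 kb held few peaks. On 2L the windows starting at 13500001 and 18100001 held 6 each, and those at 12500001 and 17400001 held 5 each. On 3L the windows at 10800001 and 18700001 held 5 each, and those at 9300001 and 21000001 held 4 each. On 3R the window at 27900001, with most of the terminal group, held 6, and those at 2600001 and 23600001 held 5 each. All of the 3 named windows of 3R were filled by 1 group each.

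Long stretches of each arm were without a peak. The longest between 2 distal peaks was 1604 kb on 3R, at 3R:6090731-7694690, followed by 1445 kb on 3L, at 3L:13221868-14667071, and 809 kb on 2L, at 2L:16621759-17430485. Gaps over 500 kb between distal peaks numbered 6 on 2L, 10 on 3L and 7 on 3R. Next to the boundary, a further 1208 kb of distal 2L, 48.0 kb of 3L and 645 kb of 3R held no peak, so on 2L the stretch at the boundary was the longest. The list cannot tell a stretch without binding from one in which reads could not be placed.

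The outermost 1 Mb of the 3 arms held 30 peaks, 6 on 2L, 12 on 3L and 12 on 3R. Their median score was 20.3 (interval 13.3 to 27.0), and 16 of them were clustered (53.3%, exact interval 34.3 to 71.7%). By arm, the median score of this zone was 12.3 on 2L, 14.6 on 3L and 29.5 on 3R, so the higher value came from 3R. On 3R, 7 of the 12 belonged to the terminal group described above. In the zones further in, at 1 to 5, 5 to 10, 10 to 15, 15 to 20 and over 20 Mb from the outermost peak, the median score was 13.1, 14.3, 14.8, 15.2 and 14.5. All of their intervals overlap that of the outermost zone.

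**Figure D4:**
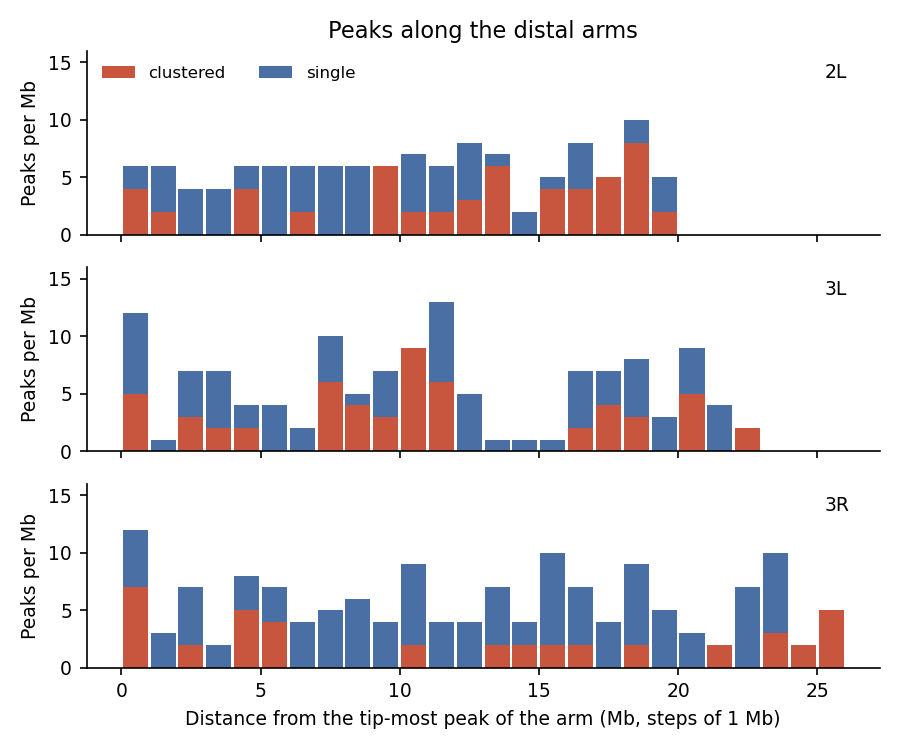
Number of distal autosomal peaks in steps of 1 Mb, counted from the tip-most peak of 2L, 3L and 3R (horizontal axis, Mb), with clustered peaks in the lower and single peaks in the upper part of each bar. The last step of each arm is incomplete. Counts run from 1 to 13 over the full steps, and 6 of 20 steps on 2L, 9 of 23 on 3L and 12 of 26 on 3R hold single peaks only.

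The peaks at the boundaries of the distal parts were as follows. On 2L the last peak inside, 2L:19791058-19791654, had a score of 46.15 and the first outside, 2L:21020440-21023836, a score of 88.78. On 3L the peak inside, 3L:22451716-22452040, had 14.72 and the one outside, 3L:22736867-22737818, had 82.75. On 3R the peak inside belonged to the group of 5 named above and had 29.54, and the one outside, 3R:1473735-1474264, had 20.64. On each arm the boundary fell between peaks, and no group of linked peaks crossed it.

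The distal peaks were set beside the remaining 115 peaks of the same arms, those past the boundaries and on 2LHet, 3LHet and 3RHet, the heterochromatic sequences assigned to them. The median width was 344 bp for distal peaks and 456 bp for pericentromeric peaks (interval 397 to 503 bp), and the 2 intervals do not overlap. The difference of -112 bp was -57.5 bp without the 23-peak group of 2L, a run of linked pericentromeric peaks left out after the values were seen, and -37 bp without 2L. Widths of 1 kb or more occurred in 12 of 398 distal peaks (3.02%) and 27 of 115 pericentromeric ones (23.5%), or 5 of 92 (5.43%) without that group. The median score was 14.45 for distal and 17.4 for pericentromeric peaks (14.7 to 27.0), a difference of -2.93 that was 0.020 without 2L and -0.165 without the 23-peak group, so it rested on that group. Scores of 50 or more occurred in 5.53% of distal and 31.3% of pericentromeric peaks, or 15.2% without the group. The clustered share was 38.2% for distal peaks and 60% for pericentromeric peaks (exact interval 50.4 to 69.0%), or 50% without the group (39.4 to 60.6%). On the 3 arms without the Het sequences, density was 5.90 distal peaks per Mb of span (5.34 to 6.51) and 16.4 pericentromeric peaks per Mb (13.1 to 20.2), or 11.9 without the group (9.15 to 15.3).

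The X was set beside the distal autosomal arms as another mainly euchromatic arm. It was taken whole, with no cut towards the centromere, whereas the autosomal arms were cut at their boundaries. The median score was 14.45 for distal autosomal peaks and 15.3 for X peaks (164 peaks, interval 13.6 to 18.2). The median width was 344 bp for distal autosomal and 401.5 bp for X peaks (361 to 455 bp). Density was 5.90 per Mb of span on the distal autosomal arms and 7.33 on X (6.25 to 8.54), and the clustered share was 38.2% and 37.2% (29.8 to 45.1%). No test of these differences was made, since the peaks of 1 list carry no replicate error, and nothing is called particular to the distal arms from them.

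**Figure D5:**
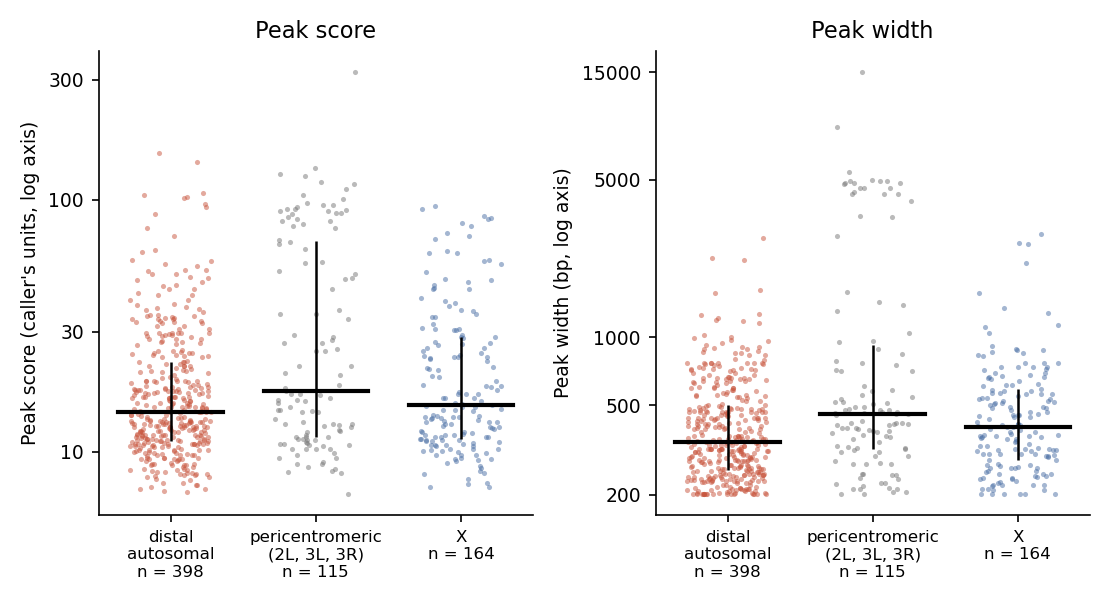
Peak score (left, caller's units) and peak width (right, bp), both on log axes, for 398 distal autosomal, 115 pericentromeric and 164 X peaks, with 1 point per peak, a bar at the median and a line over the interquartile range. Distal autosomal and X peaks form 1 cloud each around medians of 14.45 and 15.3, while the pericentromeric peaks reach widths of 15031 bp and the distal ones 2759 bp.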

How the data were processed

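Chromatin immunoprecipitation followed by sequencing compared 2 ChIP libraries with 2 input libraries of Stat92E-GFP embryos. CASAVA 1.7.0.2 and 1.7.0.3, BWA and MACS2 are listed in the submitters' processing notes, as is the build BDGP5. Per the file headers, coordinates are of FlyBase release 5. The score of each peak is the authors' deposited value, of unstated scale. Not given in the sources used here are read depth, the calling threshold, how reads with several matches were handled and whether replicates were pooled.

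From the list, peaks of a sequence with a gap of at most 10 kb were linked into groups, neighbours past a boundary included. Medians have order-statistic intervals, shares exact (Clopper-Pearson) intervals and densities exact Poisson intervals, all at 95%. Intervals of a difference between medians, used only to judge the alternative values, join opposite bounds of the medians compared and are thus wider. Correlations are Spearman rank correlations across peaks, given without a p. Densities are per Mb between the outermost peaks of an arm, since arm lengths were not used. Linking and the intervals of medians were tested on simulated data, and the other intervals were not. Python 3.11.15, numpy 2.4.6, pandas 2.3.3, scipy 1.17.1 and matplotlib 3.10.9 were used.

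The regions named were the 20 of highest score and the 3 highest of each arm, the 10 widest, the narrowest (13 tied), the 10 groups with most peaks, the densest windows of 100 kb, the longest peak-free stretch of each arm and the peaks at the boundaries. The members, groupings and cut-offs were chosen with earlier results of these data known. Genes were not assigned and sequences not read, because the annotation used here is of release 6.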

Additional observations from a re-analysis of the deposited data

How the results depend on the processing

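No paired analysis was possible because the deposited list has no value per library, so no replicate could be left out or paired either. Of 100 alternative values for 11 results, 74 stayed within the interval of the reported value without a change of sign, and 17 moved out of it. The remaining 9 changed sign but also lay within the interval. For a difference of medians, the interval joined opposite bounds of the medians compared. It is wider than an interval of the difference itself, so values stay within it more easily. The removal of the groups of 5 or more peaks and of the 23-peak group of 2L were chosen after seeing the data. The clustered share of 38.2% was 24.6% with a linking distance of 1 kb and 59.8% with 50 kb, which follows from the distance itself, 44.4% without 3R, and 25.5% and 25% among the highest 50% and 25% of the scores, where fewer peaks can be neighbours. Means in place of medians gave 20.6 for the score and 437 bp for the width, whose distributions have long upper tails. The median width was 387.5 bp with peaks within 1 kb merged, and 469 and 653 bp in the highest 50% and 25% of the scores. Density was 5.07 per Mb with merging, and 2.95 and 1.48 per Mb in the same 2 sets by construction. The correlation of score with width was 0.577 and 0.50 there.

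The score difference of clustered minus single peaks, 0.380, turned to -0.085 without 3R, to -0.420 and -1.49 with the boundaries 1 and 3 Mb further from the centromere, to -1.37 in means and to -0.910 without the groups of 5 or more peaks. The width difference, -15 bp, turned to 7.50 bp at a linking distance of 1 kb, 11 bp at 50 kb and 42.8 bp in means. Neither direction can be relied on. The score difference of distal minus pericentromeric peaks, -2.93, was 0.020 without 2L and -20.6 in means; the width difference, -112 bp, was -57.5 bp without the 23-peak group and -923 bp in means. The differences from X stayed within their intervals under every alternative run. These intervals join opposite bounds of the medians compared, so they are wide and staying within them is a weak check. Depth is unknown, so the list cannot show how many weaker sites were missed.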
